A study of Mus musculus with 6 samples.

Results

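Endothelial cells line the blood vessels of a tumor, and 10 genes that mark them were followed here in C0321 tumors: Pecam1, Cdh5, Kdr, Flt1, Tek, Tie1, Eng, Emcn, Esam and Vwf. The genes were chosen by cell type, with earlier results of these data known, and a gene was kept where its symbol stood in the deposited count table. The values that chose them were thus counts summed over all 6 tumors, since the table had been cleared of the lowest entries and every transcript left held at least 10 in all. By that rule 9 of the 10 genes were present, with 13 of the 20648 transcripts and among 13730 genes in all. Emcn had no row and was not analysed here. Pecam1 lay nearest to that limit, with 10.4 counts in control tumor 3, 6.93 in SS tumor 1, 5.06 in SS tumor 2 and 0 in the other tumors. The other 8 genes passed edgeR's filter on low counts and were tested.

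RNA was read from 6 tumors, 3 control and 3 treated, that had grown from C0321 cells placed with Matrigel and PBS in the mammary fat pad of female FVB mice aged 6 to 10 weeks. C0321 is a single mouse line of triple-negative breast cancer (TNBC) obtained from a Lfng-/- mouse on the FVB background, so the tumor cells of both groups shared that deletion, whereas the vessels came from the host. The treatment was sulindac sulfide (SS), a metabolite of the anti-inflammatory drug sulindac. It was given orally over 14 days, at 60 mg/kg a day, from when tumors were palpable. The sample labels call the drug a sulfate and the series text calls the control saline, while the paper speaks of sulindac sulfide and of a vehicle. The numbers 1 to 3 in the sample titles are the only sign of separate samples, and p-values measure the spread between them. Totals ranged from 8468914 counts in SS tumor 2 to 24441522 in control tumor 3. Before any scaling, 3 counts corresponded to between 0.123 and 0.354 for every 1000000 of these totals. Levels are given in CPM, that is, counts for every 1000000 in a library scaled by edgeR's TMM factors. Of the receptors that define the label triple-negative, Esr1 was at 4.48 to 6.40 CPM over the 6 tumors, Pgr at 0 to 3.82 CPM and Erbb2 at 17.0 to 22.4 CPM.

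Tumor vessels grow mainly under vascular endothelial growth factor (VEGF), which signals through the receptor tyrosine kinase Kdr (VEGFR2), while Flt1 (VEGFR1) binds the same ligand tightly and in many settings limits its action. Angiopoietins act through Tek (TIE2), with Tie1 as its partner, and govern whether a vessel is quiet or remodelling. Cdh5 (VE-cadherin), Esam and Pecam1 hold neighbouring endothelial cells together, Eng is a co-receptor of the TGF-beta family, and Vwf is the clotting factor that endothelial cells store and release.

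The sequence just before the start of a gene is shown for the 5 measured receptors, because these genes share expression in one cell type and ETS factors are known to bind near many endothelial genes. Each line gives 250 bases before the start, 5′ to 3′ on the gene's strand, from RefSeq on GRCm38.p6. This RefSeq start differs from that of the measured transcript in the count table by 22 bases for Flt1, 26 for Kdr and 1 for Tie1, and distances given here are from the RefSeq start. Capitals mark AGGAAG, a form of the sites that ETS factors bind, on either strand (CTTCCT on the other), and TATAAA, the TATA box. Other forms of ETS site were not searched, so a window without AGGAAG may still hold one. No entry was matched for Cdh5, Esam, Vwf or Pecam1.
Flt1, chr5:147726012-147726261, minus strand: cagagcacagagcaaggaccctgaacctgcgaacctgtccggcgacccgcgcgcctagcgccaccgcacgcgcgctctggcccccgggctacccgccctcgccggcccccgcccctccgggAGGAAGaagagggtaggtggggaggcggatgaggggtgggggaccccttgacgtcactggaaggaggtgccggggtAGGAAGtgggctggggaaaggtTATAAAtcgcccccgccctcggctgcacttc
Kdr, chr5:75978456-75978705, minus strand: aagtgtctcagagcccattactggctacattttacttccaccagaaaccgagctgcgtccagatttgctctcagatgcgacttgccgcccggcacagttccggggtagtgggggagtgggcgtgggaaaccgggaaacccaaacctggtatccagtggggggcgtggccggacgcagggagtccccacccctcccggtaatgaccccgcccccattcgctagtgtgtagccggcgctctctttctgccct
Tek, chr4:94739039-94739288, plus strand: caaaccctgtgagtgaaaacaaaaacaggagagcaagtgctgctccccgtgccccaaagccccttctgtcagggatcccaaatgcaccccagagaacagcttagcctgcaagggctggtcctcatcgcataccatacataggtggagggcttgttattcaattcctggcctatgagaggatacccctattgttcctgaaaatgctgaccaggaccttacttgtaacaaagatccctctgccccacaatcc
Tie1, chr4:118489850-118490099, minus strand: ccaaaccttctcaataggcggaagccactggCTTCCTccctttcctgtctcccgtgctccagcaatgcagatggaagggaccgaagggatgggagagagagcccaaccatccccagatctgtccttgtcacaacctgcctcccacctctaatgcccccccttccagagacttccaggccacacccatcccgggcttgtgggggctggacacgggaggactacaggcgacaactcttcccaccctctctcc
Eng, chr2:32646345-32646594, plus strand: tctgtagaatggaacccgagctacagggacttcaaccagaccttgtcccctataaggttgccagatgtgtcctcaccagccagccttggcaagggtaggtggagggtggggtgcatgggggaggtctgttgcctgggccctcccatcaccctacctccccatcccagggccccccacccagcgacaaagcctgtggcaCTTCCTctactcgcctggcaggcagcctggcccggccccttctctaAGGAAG

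AGGAAG was present before 3 of the 5 receptor genes. It lay 129 and 53 bases before the start of Flt1, 52 and 6 bases before that of Eng and 219 bases before that of Tie1. Of 32851 mouse promoters of the same length, 29.5% held these letters. TATAAA was found 31 bases before the start of Flt1 and in none of the other 4 windows, against 12.4% of all promoters. AGATAA, a core bound by GATA factors, was in none of the 5, against 9.99% of all. The pairs of related receptors thus differed in these letters, Flt1 from Kdr and Tie1 from Tek, which is a description of the windows alone.

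Mean levels of 7 of the 8 tested endothelial genes were higher in SS than in control tumors, most of all for Vwf, and that of Kdr was lower, but no gene passed adjustment. When edgeR's quasi-likelihood test was adjusted by Benjamini-Hochberg over 10902 genes, 0 of the 8 tested endothelial genes and 0% of all genes had an adjusted p under 0.05. At an unadjusted p under 0.05 there were 2 of the 8, Vwf and Esam, both higher in SS tumors, against 6.36% of all genes tested, or 3.19% of them in the higher and 3.16% in the lower direction. The log2 fold change of SS against control was above 0 for 7 of the 8 and for 49.8% of all genes, and its median was 0.46 for the 8 and -0.0013 for all genes. In bulk tumor RNA, more endothelial cells and more RNA per cell cannot be told apart, nor fewer cells and less RNA per cell. The direction rested in part on 1 tumor: SS tumor 2, the shallowest library, was the highest of the 6 for 6 of the 8 genes, and without it the median was 0.078 and 5 of the 8 were above 0.

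**Figure D1:**
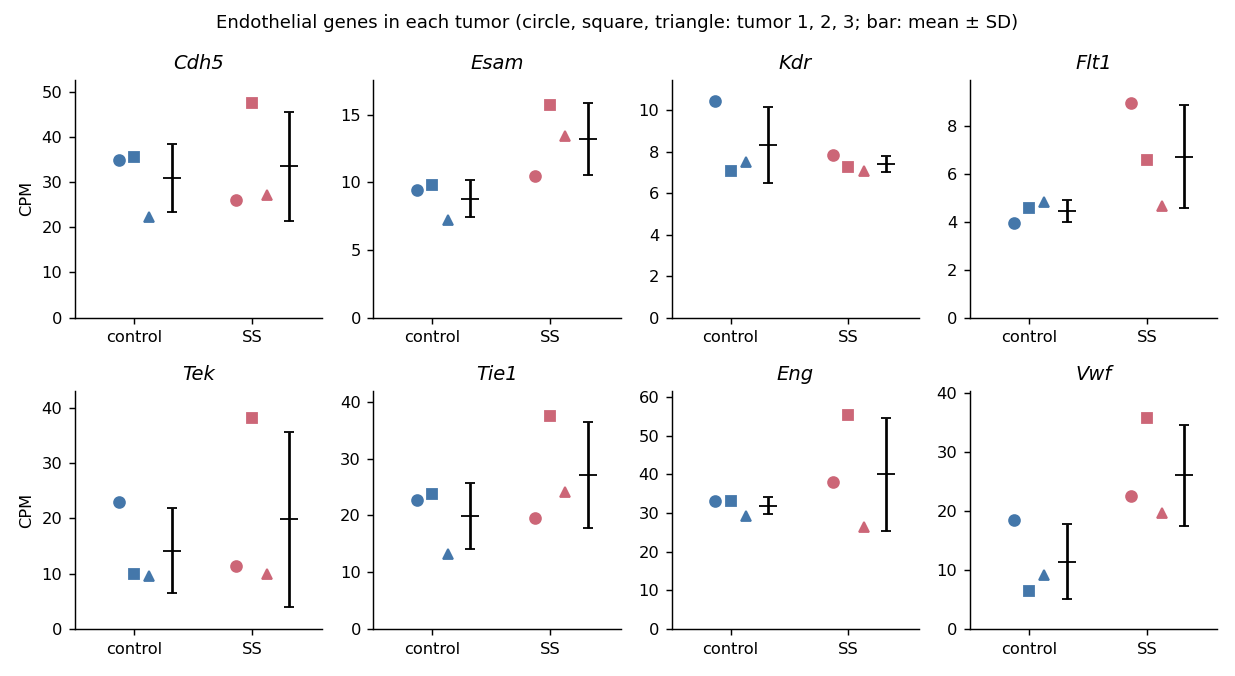
Level of the 8 tested endothelial genes in CPM (vertical axis, from 0) in each control (blue) and SS (red) tumor, with circle, square and triangle for tumors 1, 2 and 3 and a bar for the mean ± SD of 3 tumors. The SS points lie above all control points for Esam and Vwf, and the SS square is the highest point for 6 of the 8 genes.

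Vwf differed most. This gene, on chromosome 6 from 125552948 to 125686680 (mm10, as are all gene positions here), encodes the multimeric glycoprotein that tethers platelets to an injured vessel wall. It was at 18.5, 6.44 and 9.19 CPM in tumors 1, 2 and 3 of the control group and at 22.6, 35.8 and 19.7 CPM in those of the SS group. Every SS tumor lay above every control tumor, although SS tumor 3 exceeded control tumor 1 by little. Means were 11.4 ± 6.32 CPM (SD, n = 3) and 26.0 ± 8.57 CPM (SD, n = 3), a fold of 2.30. The log2 fold change was 1.20, with an SE (standard error) of 0.41, a 95% interval of 0.26 to 2.14 and an unadjusted p of 0.0191. The adjusted p of 0.771 in edgeR's quasi-likelihood test did not pass, and the exact two-sided permutation test gave 0.1, the smallest p that 3 tumors against 3 allow. The values rested on 131 to 311 counts per tumor. Leaving out 1 tumor at a time kept the log2 fold change between 0.90 and 1.73, with the unadjusted p above 0.05 without control tumor 2 (0.054), control tumor 3 (0.0621) or SS tumor 2 (0.0734).

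Vwf is also made by megakaryocytes and carried by platelets. Of 6 platelet markers, 4 were in the table and 2 were tested. Pf4, a platelet chemokine, was at 2.59 ± 0.538 CPM without SS and 2.99 ± 1.20 CPM with SS (SD, n = 3 each), and Gp1bb, a subunit of the platelet receptor for Vwf, at 0.829 ± 0.683 and 0.577 ± 0.278 CPM. The summed level of the 4 markers was 3.61 to 5.06 CPM in control tumors and 2.25 to 6.42 CPM in SS tumors, with Itga2b and Gp9 at most 1.67 CPM in any tumor. The part of platelets in the values of Vwf, Esam or the other endothelial genes was not tested.

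Among the genes of endothelial junctions and adhesion, Esam stood apart between the groups and Cdh5 did not. Esam, an adhesion molecule of endothelial tight junctions on chromosome 9 from 37528089 to 37538320, was at 9.41, 9.78 and 7.22 CPM in tumors 1, 2 and 3 of the control group and at 10.5, 15.7 and 13.4 CPM in those of the SS group. All SS tumors were above all control tumors. With Vwf, 2 of the 8 genes were apart in this way, against 6.51% of all tested genes, and 0 of the 8 had every SS tumor below every control tumor, against 6.4% of all. Means of Esam were 8.80 ± 1.38 and 13.2 ± 2.65 CPM (SD, n = 3 each), with a log2 fold change of 0.58, an SE of 0.23 and an unadjusted p of 0.0356. Its adjusted p in edgeR's quasi-likelihood test was 0.771. The unadjusted p was above 0.05 when control tumor 1, control tumor 3, SS tumor 2 or SS tumor 3 was left out, while the log2 fold change stayed between 0.44 and 0.73 over all 6 omissions.

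Cdh5, the cadherin of endothelial adherens junctions on chromosome 8 from 104101625 to 104144503, was at 34.8, 35.5 and 22.2 CPM in control tumors 1, 2 and 3. In SS tumors 1, 2 and 3 it was at 26.1, 47.5 and 27.0 CPM. The groups overlapped, with SS tumors 1 and 3 between the control values and SS tumor 2 above them. The log2 fold change was 0.12 (SE 0.28, 95% interval -0.54 to 0.77). Without SS tumor 2 it was -0.21 and without control tumor 3 it was -0.072. Cdh5 was therefore the gene of the set with the least difference in proportion to its error, at an unadjusted p of 0.690.

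Pecam1 (CD31), an adhesion molecule often used to stain vessels, was measured through a single transcript, 1 of 4 curated RefSeq transcripts of the gene, on chromosome 11 from 106654213 to 106715282. It was at 0, 0 and 0.410 CPM in tumors 1, 2 and 3 of the control group and at 0.508, 0.596 and 0 CPM in those of the SS group. Both groups held tumors with 0 counts and the rest lay near the floor of 3 counts, so no fold change is given. The value does not stand for the whole gene, whose other transcripts were not analysed here.

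The log2 fold changes of both VEGF receptors lay on opposite sides of 0, and neither passed the test. Kdr, the main signalling receptor for VEGF on chromosome 5 from 75933270 to 75978429, was at 10.4, 7.08 and 7.51 CPM in tumors 1, 2 and 3 of the control group and at 7.84, 7.27 and 7.10 CPM in those of the SS group. Apart from control tumor 1, all tumors lay between 7.08 and 7.84 CPM. The log2 fold change was -0.17 (SE 0.24, 95% interval -0.71 to 0.38), and it was 0.02 without control tumor 1. Kdr was the 1 tested gene of the set with a value below 0.

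Flt1, the receptor that also binds placental growth factor, lies on the same chromosome from 147562196 to 147725989. It was at 3.95, 4.57 and 4.80 CPM in tumors 1, 2 and 3 of the control group and at 8.93, 6.56 and 4.65 CPM in those of the SS group. SS tumors 1 and 2 stood above the controls and SS tumor 3 among them. Means were 4.44 ± 0.439 and 6.71 ± 2.14 CPM (SD, n = 3 each), a log2 fold change of 0.59 (SE 0.31) that did not pass adjustment (edgeR's adjusted p = 0.792). It was 0.33 without SS tumor 1 and 0.80 without SS tumor 3, with an unadjusted p of 0.344 and 0.031. The values rested on 50 to 123 counts of 1 transcript, and the soluble form of the receptor was not analysed here.

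Both angiopoietin receptors varied widely between tumors. Tek, the angiopoietin receptor on chromosome 4 from 94739289 to 94874977, was at 23.0, 9.98 and 9.60 CPM in tumors 1, 2 and 3 of the control group and at 11.5, 38.2 and 9.89 CPM in those of the SS group. A single tumor in each group stood far above the rest, and the other 4 lay between 9.60 and 11.5 CPM. The log2 fold change was 0.48 (SE 0.57), the largest error of the set, and it was -0.40 without SS tumor 2 and 1.00 without control tumor 1. Tie1, its partner on chromosome 4 from 118471191 to 118489850, was at 22.7, 23.7 and 13.2 CPM in tumors 1, 2 and 3 of the control group and at 19.6, 37.6 and 24.1 CPM in those of the SS group. The groups overlapped, with SS tumor 2 highest and control tumor 3 lowest. Its log2 fold change was 0.44 (SE 0.31), with an adjusted p of 0.860 from edgeR, and it was 0.14 without SS tumor 2.

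Eng (endoglin), a co-receptor for BMP9 that proliferating endothelium carries in abundance, lies on chromosome 2 from 32646595 to 32682670. It was at 33.1, 33.1 and 29.3 CPM in tumors 1, 2 and 3 of the control group and at 38.1, 55.4 and 26.3 CPM in those of the SS group. Control tumors were close to each other, whereas SS tumors spread to both sides of them. The log2 fold change was 0.32 (SE 0.25), and leaving out SS tumor 2 made it 0.017 and leaving out SS tumor 3 made it 0.55, with an unadjusted p of 0.0277 for the latter.

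**Figure D2:**
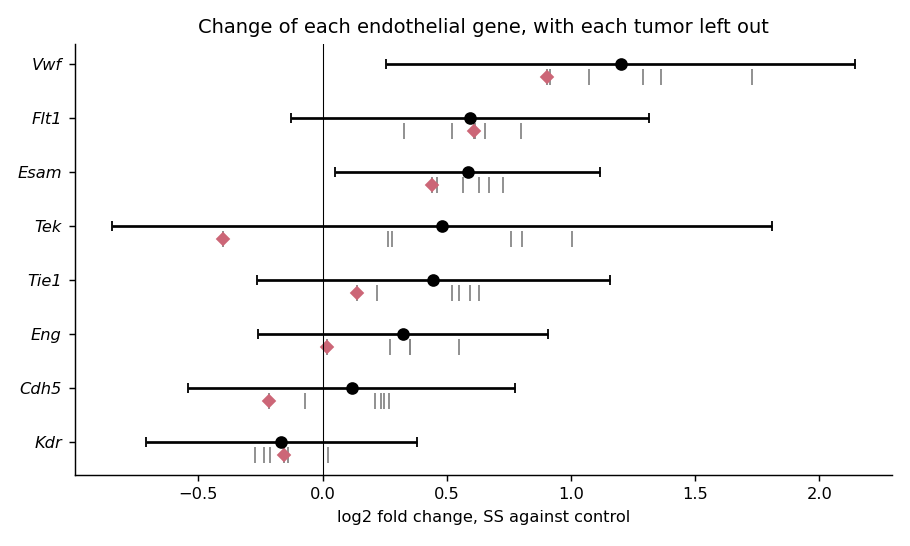
Log2 fold change of SS against control tumors (horizontal axis) for each tested endothelial gene, with the estimate from all 6 tumors as a black point, its 95% interval as a bar, and below it a tick for each fit without 1 tumor, the fit without SS tumor 2 as a red diamond. The intervals of Vwf and Esam lie above 0, and those of the other 6 genes cross 0.

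Levels of different genes were compared as CPM per kilobase of transcript. The CPM of a gene was divided by the longest length known among its measured transcripts. The noncoding transcript of Esam had no length, so the places of Esam, Eng and Tek depend on this choice. In control tumors the order was Eng at 9.30 ± 0.641, Cdh5 at 7.72 ± 1.88, Tie1 at 4.86 ± 1.41, Esam at 4.72 ± 0.741, Tek at 3.05 ± 1.64, Kdr at 1.41 ± 0.308, Vwf at 1.29 ± 0.715 and Flt1 at 0.644 ± 0.064 CPM per kilobase (SD, n = 3 each). Neighbours in that order overlapped in their ranges except Tek with Kdr and Vwf with Flt1. In SS tumors the order differed in where Esam stood, before Tie1, and in where Vwf stood, before Kdr, with Vwf at 2.94 ± 0.971 and Kdr at 1.25 ± 0.065 CPM per kilobase (SD, n = 3 each). Of the 8 genes, Eng and Cdh5 had the highest means per kilobase in both groups and Flt1 the lowest.

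Across tumors, the mean of the 8 genes, each as log2 CPM less its own mean over the 6 tumors, stood at 0.095, -0.27 and -0.46 for tumors 1, 2 and 3 of the control group. For those of the SS group it stood at 0.065, 0.66 and -0.097. The groups overlapped in this average, with SS tumor 2 at the top and control tumors 2 and 3 at the bottom. Control tumor 3 was the lowest tumor for 4 of the 8 genes and above the gene's mean for 0 of the 8, while SS tumor 2 was above it for 7.

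**Figure D3:**
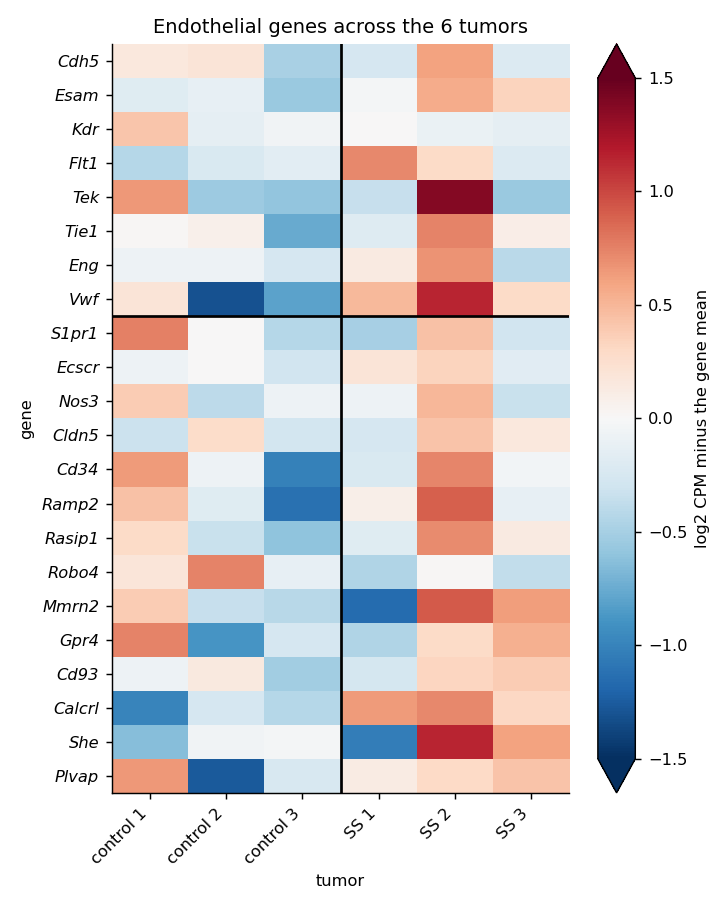
Log2 CPM less the gene's mean over 6 tumors (color scale) for the 8 tested endothelial genes (above the horizontal line) and 14 other pan-endothelial genes (below it), with tumors in columns. The column of SS tumor 2 is above the mean for most genes of both blocks, and that of control tumor 3 is below it for most.

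Ratios between endothelial genes within a tumor were formed for pairs chosen after their values had been seen. The ratio of Vwf to Cdh5 was 0.532, 0.181 and 0.414 in tumors 1, 2 and 3 of the control group and 0.866, 0.754 and 0.728 in those of the SS group. Every SS tumor was above every control tumor, with means of 0.376 ± 0.178 and 0.783 ± 0.0735 (SD, n = 3 each) and an exact two-sided permutation p of 0.1. The ratio of Flt1 to Kdr was 0.379, 0.646 and 0.639 in the control group, in the same order of tumors, and 1.14, 0.902 and 0.655 in the SS group. These values did not overlap either, though SS tumor 3 was close to control tumors 2 and 3, and the exact two-sided permutation p was 0.1. The ratio of Tek to Tie1 overlapped, at 0.721 ± 0.296 in control and 0.670 ± 0.312 in SS tumors (SD, n = 3 each, exact two-sided permutation p = 0.8). The ratio of Cldn5, the main claudin of endothelial tight junctions, to Cdh5 was 0.394 ± 0.0935 and 0.427 ± 0.0830 (SD, n = 3 each, exact two-sided permutation p = 0.7).

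**Figure D4:**
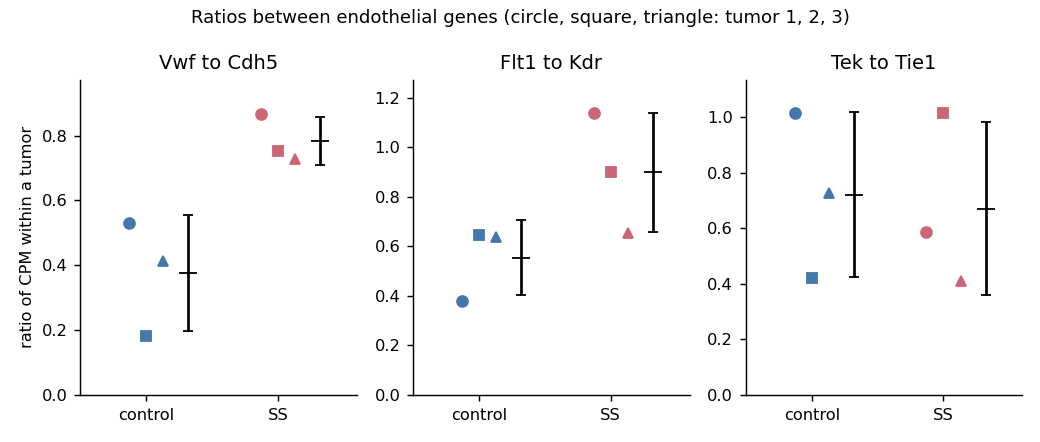
Ratio of the CPM of a pair of endothelial genes within each tumor (vertical axis, no unit), with circle, square and triangle for tumors 1, 2 and 3 of the control (blue) and SS (red) groups and a bar for the mean ± SD of 3 tumors. The groups are apart for Vwf to Cdh5, with 0.181 to 0.532 against 0.728 to 0.866, meet closely for Flt1 to Kdr and overlap for Tek to Tie1.

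Only Eng, Esam and Tek were held as more than 1 transcript. The share of Tek counts given to NM_001290549 was 50.8, 50.8 and 41.5% in tumors 1, 2 and 3 of the control group, against 50.8, 64.7 and 50.8% in those of the SS group. The same share stood in 4 tumors of different depth. The coding transcript of Esam, NM_027102, took 57.9 ± 14.4% in control and 71.0 ± 13.5% in SS tumors (SD, n = 3 each), with the noncoding NR_136939 taking the rest. A share of 57.2% stood in both control tumor 2 and SS tumor 1. NM_001146350 took 58.2 ± 4.86% and 58.6 ± 15.3% of Eng counts (SD, n = 3 each). The Eng shares overlapped between the groups. In control tumors 1 and 2 and SS tumors 1 and 3, NM_001146348 of Eng took 19.2, 20.8, 13.8 and 20.4%. NM_007932 took 18.4, 19.9, 13.2 and 19.5% there, in step with it. The Tek and Esam splits, with shares that recurred between tumors, and the Eng split are not read as a measure of isoform use. The sums per gene given above do not depend on these splits.

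Of the other 22 pan-endothelial genes listed, 16 were in the table and 14 were tested. Of these 14, 12 had a log2 fold change above 0 and 2 below, with a median of 0.29, 1 at an unadjusted p under 0.05 (against 6.36% of all genes) and 0 past adjustment. Calcrl, the receptor for adrenomedullin, was at 1.03 ± 0.291 CPM in control and 2.34 ± 0.356 CPM in SS tumors (SD, n = 3 each), with an adjusted p of 0.771 from edgeR. S1pr1, the receptor for sphingosine 1-phosphate and the gene with the highest CPM of the list, not scaled by length, was at 35.1 ± 15.0 and 29.4 ± 10.7 CPM (SD, n = 3 each). Summed over the list, control tumors were at 89.4 to 154 CPM and SS tumors at 104 to 172 CPM, so the groups overlapped.

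The ligands and co-receptors were mixed in direction. Of 6 tested VEGF ligands and other VEGF receptors, 3 were above 0 and 3 below, with a median log2 fold change of -0.12. Vegfa, the main ligand of Kdr and Flt1, was at 696 ± 140 CPM in control and 577 ± 39.0 CPM in SS tumors (SD, n = 3 each), a log2 fold change of -0.27 (SE 0.15). Nrp1, a co-receptor that presents VEGF to Kdr, was at 65.7 ± 2.83 and 83.3 ± 8.76 CPM (SD, n = 3 each), with every SS tumor above every control and an adjusted p of 0.771 from edgeR. Nrp1 is also made by macrophages and fibroblasts. Flt4 (VEGFR3), the receptor that lymphatic endothelium and some tumor vessels carry, was named after its values had been seen. It was at 5.69, 8.06 and 6.16 CPM in tumors 1, 2 and 3 of the control group and at 8.49, 8.47 and 10.1 CPM in those of the SS group, with every SS tumor above every control, a log2 fold change of 0.44 (SE 0.23) and an unadjusted p of 0.0954. Nrp1 and Flt4 were the 2 of the 6 tested genes that were apart in this way, against 6.51% of all genes tested. Of 4 tested genes of the angiopoietin system, 1 was above 0, Ptprb (VE-PTP, the phosphatase that holds Tek in check), at 21.1 ± 5.29 and 36.5 ± 16.2 CPM (SD, n = 3 each), with an unadjusted p of 0.042 and an adjusted p of 0.771 from edgeR. The groups overlapped for Ptprb, with control tumor 1 at 26.1 CPM and SS tumor 3 at 25.3 CPM, and SS tumor 2 was highest at 55.1 CPM. Svep1, a matrix protein that binds this system, was at 11.4 ± 4.95 and 9.83 ± 4.30 CPM (SD, n = 3 each), and the median of the list was -0.41.

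The arm of BMP9 and ALK1 to which Eng belongs had 9 tested genes, all with a log2 fold change below 0, a median of -0.17 and 1 at an unadjusted p under 0.05, against 6.36% of all genes. Smad4, the shared mediator of TGF-beta and BMP signals in all cells, was at 693 ± 60.2 CPM in control and 539 ± 60.0 CPM in SS tumors (SD, n = 3 each), with an adjusted p of 0.771 from edgeR. Bmpr2, a receptor of this arm, was at 222 ± 33.9 and 213 ± 13.2 CPM (SD, n = 3 each). Most of these genes are expressed far beyond endothelium, and 7 to 9 of the 9 were below 0 when 1 tumor was left out.

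Genes of endothelial states gave no called difference. Of 11 tested transcription factors, 5 were above 0 and 6 below, with Ets1 at 152 ± 24.4 and 129 ± 10.1 CPM and Fli1 at 69.0 ± 11.0 and 63.8 ± 7.74 CPM (SD, n = 3 each) in control and SS tumors. All 5 tested genes of sprouting tip cells were below 0, with a median of -0.14 and 0 at an unadjusted p under 0.05, among them the netrin receptor Unc5b at 70.6 ± 17.4 and 64.1 ± 9.38 CPM and the chemokine receptor Cxcr4 at 27.7 ± 10.1 and 24.3 ± 6.22 CPM (SD, n = 3 each). Of 6 arterial genes, 4 were above 0, and the median was 0.94, with a range of 0.56 (without SS tumor 2) to 1.33 (without control tumor 1) on leaving out 1 tumor, an alternative added after seeing the data. The list holds genes at very low levels, among them Gja5 at 1.03, 0.393 and 0.0821 CPM and Bmx at 0.869, 0.344 and 0.410 CPM in tumors 1, 2 and 3 of the control group. Sema3g, a semaphorin of arterial endothelium, was at 1.68 ± 0.746 and 4.67 ± 1.70 CPM (SD, n = 3 each) with an unadjusted p of 0.0194, whereas Efnb2, the arterial ephrin and the gene with the highest CPM of the list, was at 84.7 ± 11.3 and 76.4 ± 4.19 CPM (SD, n = 3 each). Of 5 tested venous and activation genes, 2 were above 0 and 3 below, with the venous factor Nr2f2 at 93.5 ± 12.1 and 85.0 ± 16.7 CPM and the adhesion molecule Vcam1 at 47.4 ± 6.91 and 43.8 ± 5.02 CPM (SD, n = 3 each). Of the lymphatic genes, Reln alone was tested, at 2.91 ± 3.10 and 1.66 ± 0.818 CPM (SD, n = 3 each), and Prox1, the factor that defines lymphatic endothelium, reached at most 0.541 CPM in any tumor.

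In the vessel wall and matrix, 8 basement membrane genes had a median of 0.042, with Nid1 at 173 ± 17.1 and 138 ± 11.6 CPM (unadjusted p = 0.0259, every SS tumor below every control) and the perlecan gene Hspg2 at 327 ± 66.1 and 333 ± 19.6 CPM. Col18a1, the collagen from which endostatin is cut, was at 7.96 ± 1.09 and 11.4 ± 2.60 CPM, with every SS tumor above every control and an unadjusted p of 0.0605. Of 5 inhibitors of angiogenesis, 4 were below 0, with the thrombospondins Thbs2 at 441 ± 133 and 267 ± 99.5 CPM (unadjusted p = 0.0441) and Thbs1 at 1071 ± 508 and 712 ± 127 CPM. Neither passed adjustment in edgeR's quasi-likelihood test, at 0.771 for Thbs2 and 0.792 for Thbs1. Vash1, the inhibitor that endothelial cells make themselves, was at 5.86 ± 0.0887 and 8.18 ± 1.61 CPM, with every SS tumor above every control and an unadjusted p of 0.0779. Col18a1 and Vash1 were named after their values had been seen. Each was the 1 gene of its list, of 8 and of 5, with every SS tumor above every control, against 6.51% of all genes tested. Nid1 was the 1 of its 8 with every SS tumor below every control, against 6.4% of all. Of 10 pericyte and smooth muscle genes, 5 were above 0 and 5 below, with Acta2 at 733 ± 96.1 and 727 ± 96.0 CPM and Des at 474 ± 275 and 678 ± 545 CPM, and a median log2 fold change of 0.0001. Myh11, the smooth muscle myosin, named after its values had been seen, was at 35.3, 11.5 and 12.4 CPM in tumors 1, 2 and 3 of the control group and at 37.7, 59.0 and 17.6 CPM in those of the SS group. As for Vwf, control tumor 1 and SS tumor 2 were the highest of their groups, but the groups overlapped for Myh11. No other gene of the list was highest among controls in control tumor 1. Acta2, Des, Pdgfrb and Rgs5 were highest among controls in control tumor 2, at 843, 770, 81.1 and 19.4 CPM. Among SS tumors, Acta2 and Des were highest in SS tumor 2, at 816 and 1062 CPM, and Pdgfrb and Rgs5 in SS tumor 3, at 67.5 and 19.6 CPM. The list summed to 1090 to 1862 CPM in control and 992 to 2122 CPM in SS tumors. Means here are of 3 tumors with the SD, control first.

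Other cells of the samples were checked through their markers. Adipocyte markers, from the fat pad into which the cells were placed, summed to 363, 32.5 and 10.9 CPM in tumors 1, 2 and 3 of the control group and to 58.3, 195 and 39.4 CPM in those of the SS group. Control tumor 1 and SS tumor 2, which held the most, were also the tumors with the highest Tek and, each within its own group, the highest Vwf and Eng. The other endothelial genes did not follow. Among controls, Cdh5, Esam and Tie1 were highest in control tumor 2, at 35.5, 9.78 and 23.7 CPM. Flt1 was lowest of all in control tumor 1, at 3.95 CPM. Among SS tumors, Flt1 and Kdr were highest in SS tumor 1, at 8.93 and 7.84 CPM. Control tumor 3, which held the least of the adipocyte markers, had the lowest average of the endothelial genes. Car3 made up most of the adipocyte sums, at 306 CPM in control tumor 1 and 37.2 CPM in SS tumor 3, and Adipoq, Cfd and Lep were at most 1.11 CPM in any tumor. Plin1, Fabp4 and Pparg were each highest in control tumor 1, at 37.8, 6.88 and 9.72 CPM, and next in SS tumors 1 and 2, at 8.06 and 14.7, 3.70 and 3.46, and 5.30 and 8.47 CPM, with no more than 1.77 CPM in the other 3 tumors. The part of fat pad tissue in the endothelial values was not tested. Within the adipocyte list, 2 of 4 tested genes were above 0, with Car3 at 115 ± 166 and 81.5 ± 74.0 CPM and Plin1 at 12.6 ± 21.8 and 7.57 ± 7.35 CPM (SD, n = 3 each). Macrophage and leukocyte markers summed to 790 to 925 CPM in control and 823 to 1010 CPM in SS tumors, with 6 of 8 above 0, Csf1r at 384 ± 58.2 and 416 ± 49.5 CPM and Cd14 at 17.1 ± 3.38 and 11.4 ± 1.64 CPM (SD, n = 3 each, adjusted p = 0.771 for Cd14 in edgeR's quasi-likelihood test). Fibroblast markers had 1 of 5 above 0, with Col1a1 at 11819 ± 2498 and 11035 ± 3650 CPM and Col1a2 at 3002 ± 610 and 2430 ± 676 CPM (SD, n = 3 each). Epithelial and tumor markers had 3 of 10 above 0, with Krt18 at 90.1 ± 9.0 and 63.8 ± 5.49 CPM (SD, n = 3 each, adjusted p = 0.760 in edgeR's quasi-likelihood test) and Vim, which the endothelium also expresses, at 7314 ± 662 and 7026 ± 1425 CPM (SD, n = 3 each). The basal keratins, named after their values had been seen, also differed widely within groups. Krt14 was at 45.8, 14.0 and 6.44 CPM in tumors 1, 2 and 3 of the control group and at 20.9, 33.9 and 7.61 CPM in those of the SS group, and Krt5 at 73.1, 1.13 and 1.44 CPM and at 33.9, 26.7 and 0 CPM in the same order. Control tumor 1 and SS tumors 1 and 2 held the most of both, as of the adipocyte markers. Pgr did too, at 1.74, 1.02 and 3.82 CPM in those tumors, but the list as a whole did not. Krt8 and Krt18 were highest in control tumor 2, at 544 and 98.1 CPM. Epcam was at 0.218 CPM in SS tumor 1, against 2.98 and 1.52 CPM in SS tumors 2 and 3. The part of normal mammary tissue in the endothelial values was not tested.

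The genes whose pattern over the 6 tumors was most like the average of the 8 endothelial genes were ranked among 7637 genes with a mean of at least 5 CPM, by the root mean square difference of centred log2 CPM. The 10 nearest were Zfyve16, Xbp1, Erg, Rabgap1l, Myd88, Mylk, Mical1, Ccdc82, Surf1 and 2310035C23Rik. Their differences ran from 0.059 for Zfyve16 and 0.071 for Xbp1 to 0.13 for the last, on the log2 scale. The endothelial genes themselves lay 0.21 (Eng) to 0.62 (Vwf) from the mean of the other 7. These distances are not comparable with those of the 10, which were picked as the nearest and measured from the mean of all 8. The average is still not a profile that each endothelial gene followed. Kdr was highest in control tumor 1, at 10.4 CPM, and Flt1 in SS tumor 1, at 8.93 CPM. Erg, an ETS factor of endothelial cells, was the 1 gene of the 10 that stood in any of the lists, at a difference of 0.095. It was at 14.9, 11.5 and 8.50 CPM in tumors 1, 2 and 3 of the control group and at 13.6, 18.8 and 11.8 CPM in SS tumors 1, 2 and 3, with SS tumor 2 highest and control tumor 3 lowest, as in the average of the endothelial genes.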

How the data were processed

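The authors prepared stranded polyadenylated RNA libraries, read in pairs of 75 nucleotides, and deposited raw estimated counts per RefSeq transcript, with entries of very low counts removed and no normalization. The submitters' processing notes name CASAVA 1.8.1, Bowtie2 2.2.5, STAR 2.5.3a and mm10, and the counting tool is not given in the sources used here. Transcripts were summed by symbol and rounded, after 21 symbols held as dates had been restored by accession. Genes were filtered, scaled by TMM and compared with edgeR 4.0.16 (quasi-likelihood test, Benjamini-Hochberg adjustment over 10902 genes, R 4.3.3). Standard errors were obtained by dividing the log2 fold change by the root of F. Centred values used log2 CPM with a prior count of 2. Genes and lists were chosen with earlier results of these data known. All listed endothelial genes were named, and from each other list those at an unadjusted p under 0.05, filled to 2 with the largest mean CPM, and the first 10 by likeness. Other genes were named after their values had been seen. Fits were tested on simulated data. Alternatives were other scalings, DESeq2 1.42.0, limma 3.58.1, no filter, the replicate number as a block and the omission of each tumor. Floors cover counting error only.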

Additional observations from a re-analysis of the deposited data

How the results depend on the processing

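No endothelial gene had an adjusted p under 0.05 in any of the 13 alternatives, 6 of which left out a tumor, but DESeq2 gave no adjusted p for Flt1 and Kdr. Other scalings, DESeq2, limma and no filter on low counts kept the sign of all 8 log2 fold changes, and the number at an unadjusted p under 0.05 was 2 under each of these, against 5.75 to 6.98% of all genes. Over all genes, DESeq2 called 36 at an adjusted p under 0.05, none of them among the 6 endothelial genes to which it gave an adjusted p, and edgeR 0. Leaving out 1 tumor gave 0 to 3 genes at an unadjusted p under 0.05, against 4.58 to 7.81% of all genes, and a median of 0.078 (without SS tumor 2) to 0.56 (without SS tumor 3). Signs turned for Kdr (0.02 without control tumor 1), for Cdh5 (-0.072 without control tumor 3 and -0.21 without SS tumor 2) and for Tek (-0.40 without SS tumor 2), and the cause was not tested. The full ranges over the 6 omissions were -0.27 to 0.02 for Kdr, -0.21 to 0.27 for Cdh5 and -0.40 to 1.00 for Tek. Counts by direction, an alternative added after seeing the data, were 5 to 8 of the 8 endothelial genes above 0, 10 to 13 of the 14 other pan-endothelial genes above 0 and 4 to 5 of the 5 tip cell genes below 0. With the replicate number as a block, 1 gene, Vwf, remained at an unadjusted p under 0.05, against 5.9% of all genes, and Esam was at 0.0513. Nothing pairs the tumors beyond the number: deviations of same-numbered tumors correlated at 0.12, 0.021 and 0.077, and control tumor 2 correlated best with SS tumor 3, at 0.17. The share of the soluble Flt1 transcript was not run. Counts per tumor were 50 to 123 for Flt1 and 61 to 183 for Kdr, and each group held 3 tumors.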
